A study of Mus musculus with 7 samples.

Results

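The interferon-stimulated genes described here are 44 mouse genes that interferons are known to switch on, taken by name, with earlier results of these data known, and chosen to lie outside the Trim gene cluster near *Arntl*. Of them, 43 had a row in the count table of 21965 genes, and all 43 passed the filter on low counts that left 15743 genes. *Mx2* was not analysed here. RNASeq was performed on the 5 mm epicenter of the spinal cord after a moderate contusion at T9, 3 days after injury, in young adult mice. Of the 7 mice, 3 were labelled *Bmal1-/-* (whole-body Arntl tm1Bra allele, C57BL/6, bred from heterozygous parents) and 4 were C57BL/6 WT (both C57BL/6J in the study's methods), with 1 library per mouse and no uninjured group. By the labels, *Bmal1-/-* mice 1 and 2 were females and mouse 3 was a male, while WT mice 1 and 2 were females and mice 3 and 4 were males. According to the study's methods, WT mice were mostly bought from a supplier, so origin and genotype cannot be told apart. The comparison asks whether the interferon response of the injured cord differed between the genotypes.

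Library totals ran from 38529644 to 44096737 counts. CPM here stands for counts scaled by library size and a TMM factor (a correction for library composition). Of the variance of all genes, the first principal component held 48.6% and the second 26.3%. On the first, WT mouse 3 lay apart from the other WT mice, at 51.37 against 10.18 to 19.49. On the second, WT mouse 3 was at 36.93, WT mouse 4 at 7.234 and both WT females at -32.36. The edgeR calls of members and the highest marker sums are also given without WT mouse 3. The targeted gene, *Arntl*, encodes BMAL1. It was at 24.1, 24.2 and 22.5 CPM in the mice labelled *Bmal1-/-* and at 14.7, 15.3, 11.9 and 13.4 CPM in WT, so its gene-level count was higher in the mice labelled knockout. Such a count also takes in exons outside a deleted part and does not check the deletion. The BMAL1 target *Nr1d1* was at 5.31, 5.41 and 7.28 CPM against 36.4, 36.8, 29.2 and 34.4 CPM, and *Dbp*, another such target, was at 8.72, 7.80 and 8.83 CPM against 27.5, 29.3, 25.3 and 39.3 CPM.

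As background, type I interferons bind a receptor made of IFNAR1 and IFNAR2 and activate ISGF3, a complex with STAT2 and IRF9 that binds the interferon-stimulated response element (ISRE) in promoters. Interferon gamma signals through its own receptor to the gamma-activated sequence (GAS). The induced genes block the entry, translation or replication of viruses, sense foreign nucleic acids and feed back on interferon signalling. In the injured cord they are expressed by microglia, infiltrating macrophages, endothelial cells and astrocytes, among others. In bulk tissue, fewer cells of a type and less RNA per cell cannot be told apart.

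The promoters below, except that of *Ifitm1*, are shown because they carry the interferon motifs that the list was known for but was not chosen by. Each is the stretch of 160 bases before the RefSeq start (GRCm38.p6), written 5′ to 3′ on the strand of the gene, with every match to the ISRE core in capitals. The core was searched as GAAANNGAAA or its reverse complement TTTCNNTTTC, and cores may overlap. For a gene with several RefSeq starts, the start with the most cores is the one printed. First come an effector of each main kind, *Isg15* (chr4:156200819-156200978, minus strand), *Ifit1* (chr19:34640729-34640888, plus), *Ifit3* (chr19:34583369-34583528, plus), *Oas1a* (chr5:120907526-120907685, minus) and *Bst2* (chr8:71537473-71537632, minus), all of which hold overlapping or repeated cores.
Isg15: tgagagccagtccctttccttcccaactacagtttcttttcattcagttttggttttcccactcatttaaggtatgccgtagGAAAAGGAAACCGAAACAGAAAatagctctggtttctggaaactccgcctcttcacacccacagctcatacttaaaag
Ifit1: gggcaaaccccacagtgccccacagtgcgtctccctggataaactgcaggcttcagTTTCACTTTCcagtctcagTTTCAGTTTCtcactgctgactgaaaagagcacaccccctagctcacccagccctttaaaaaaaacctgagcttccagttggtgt
Ifit3: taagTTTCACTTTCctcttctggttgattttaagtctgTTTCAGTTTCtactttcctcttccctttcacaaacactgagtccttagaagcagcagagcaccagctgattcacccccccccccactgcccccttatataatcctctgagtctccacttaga
Oas1a: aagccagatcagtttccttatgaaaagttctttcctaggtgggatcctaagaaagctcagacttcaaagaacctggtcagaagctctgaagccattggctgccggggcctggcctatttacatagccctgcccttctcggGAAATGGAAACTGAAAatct
Bst2: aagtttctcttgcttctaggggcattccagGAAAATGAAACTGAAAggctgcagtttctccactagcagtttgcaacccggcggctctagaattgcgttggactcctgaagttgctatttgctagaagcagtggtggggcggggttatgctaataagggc

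The next pair are the promoters of a GTPase that was lower in all mice labelled *Bmal1-/-*, *Igtp* (chr11:58199396-58199555, plus), and of one whose level did not separate the genotypes, *Gbp3* (chr3:142559884-142560043, plus). Another RefSeq start of *Gbp3*, not printed, held no match to the motifs searched.
Igtp: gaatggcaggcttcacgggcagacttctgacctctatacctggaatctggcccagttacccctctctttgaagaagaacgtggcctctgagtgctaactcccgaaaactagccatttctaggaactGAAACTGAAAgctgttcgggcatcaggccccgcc
Gbp3: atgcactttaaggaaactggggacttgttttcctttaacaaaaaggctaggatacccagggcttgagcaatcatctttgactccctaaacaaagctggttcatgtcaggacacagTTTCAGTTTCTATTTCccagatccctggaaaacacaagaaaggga

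The Schlafen neighbours *Slfn9* (chr11:82991831-82991990, minus) and *Slfn8* (chr11:83020811-83020970, minus) are shown since only the former passed the test. The window of *Ifitm1* (chr7:140967916-140968075, plus) is shown since this member had the largest fold change and no ISRE core in it. That window lies inside the gene as placed by GENCODE M21, which begins at 140967221. The bases before 140967221 were not searched.
Slfn9: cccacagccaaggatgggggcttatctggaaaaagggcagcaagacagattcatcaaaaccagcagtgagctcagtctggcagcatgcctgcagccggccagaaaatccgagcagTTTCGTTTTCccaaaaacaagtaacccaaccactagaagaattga
Slfn8: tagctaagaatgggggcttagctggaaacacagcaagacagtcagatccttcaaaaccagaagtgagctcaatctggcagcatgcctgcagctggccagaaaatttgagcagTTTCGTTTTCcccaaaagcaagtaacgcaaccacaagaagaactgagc
Ifitm1: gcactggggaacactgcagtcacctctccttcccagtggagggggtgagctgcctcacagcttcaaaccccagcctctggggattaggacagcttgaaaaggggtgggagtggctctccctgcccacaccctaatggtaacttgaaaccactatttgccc

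Of the 44 members, 35 matched the RefSeq promoter table, which spans 250 bases before to 50 bases after each start. *Usp18*, *Oas2*, *Mx1*, *Mx2*, *Dhx58*, *Zbp1*, *Iigp1*, *Parp14* and *Rtp4* had no entry in it. At least one ISRE core was found for 23 of the 35 (65.7%), against 3.99% of all 27025 genes in the table. The GAS motif (TTCNNNGAA, its own reverse complement) was found for 12 members (34.3%) against 9.55% of all genes, and either motif for 27 members (77.1%) against 12.9%. The E-box CACGTG, which BMAL1 heterodimers bind, was found for 0 of 35 members and for 8.09% of all genes. Of the 33 ISRE cores, with overlapping cores counted separately, 28 lay before the start and 27 within 170 bases before it, at a median position of -59. Most of the window searched lies before the start, and whether the cores cluster there was not tested. *Irf7*, *Irf9*, *Ifi44*, *Oasl1*, *Oasl2*, *Ifitm1*, *Slfn2* and *Xaf1* held neither interferon motif in this window. The *Slfn8* and *Slfn9* stretches printed above were alike at 135 of 156 aligned bases (86.5%) and shared the single core, and whether the genotype differences of both genes differ was not tested. These matches describe letters in a window and not binding.

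**Figure D1:**
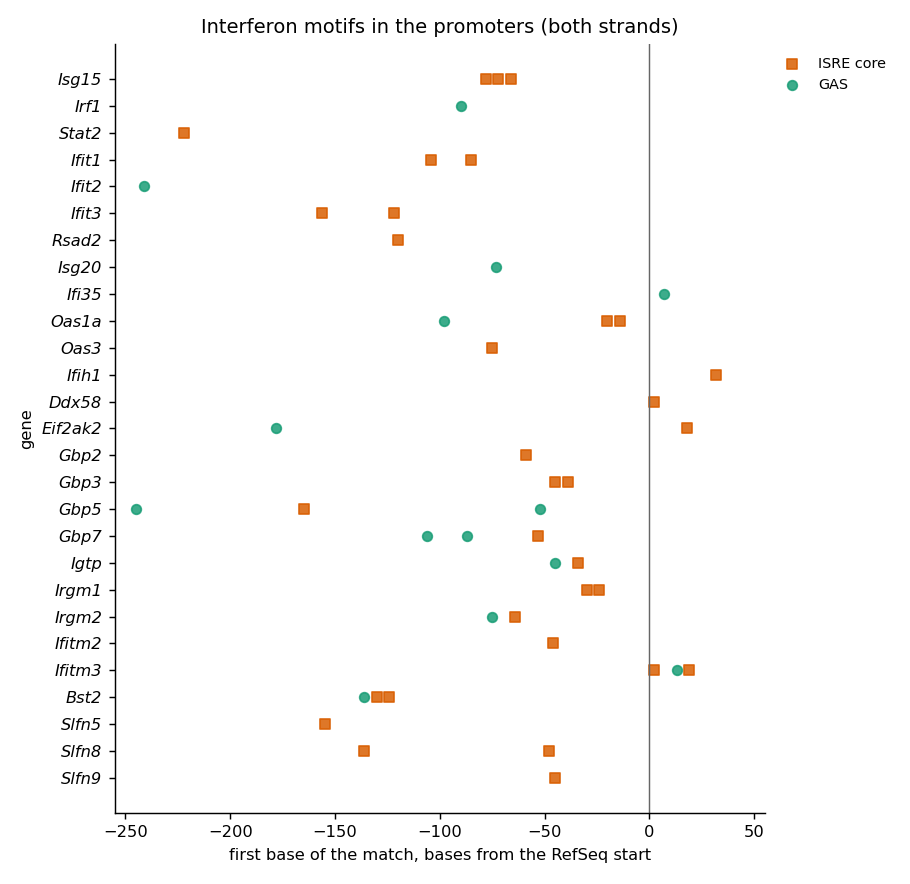
Position of each ISRE core (squares) and GAS motif (circles) for the 27 members with at least one, on a horizontal axis of bases from the RefSeq start. Most ISRE cores sit shortly before the start, with a median of -59 and extremes of -222 and 32.

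Across the 43 members, 41 had a log2 fold change under 0 (95.3%, where 51.1% of all tested genes did), and the median was -0.49, against -0.01 for all tested genes. The range ran from -1.48 for *Ifitm1* to 0.09 for *Gbp7*. With edgeR's quasi-likelihood test and Benjamini-Hochberg adjustment over all tested genes, 1 member was lower in the libraries labelled *Bmal1-/-*, *Slfn9* (2.33% of the members, where 0.915% of all genes were called lower). No member was higher, where 0.654% of all genes were. At an unadjusted p under 0.05, 18 members were lower (41.9%, against 12.2% of all genes) and 0 were higher. The share of all genes that were higher at this level was not counted. DESeq2 called 6 members lower, *Slfn9*, *Ifitm1*, *Irf1*, *Igtp*, *Ifit3* and *Ifi35*, where it called 5.81% of all genes lower, and 0 higher, where it called 3.81% of all genes higher. Without WT mouse 3 edgeR called *Slfn9* and *Ifitm1*, and 2.80% of all genes, lower.

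In 11 members all 3 libraries labelled *Bmal1-/-* lay below all 4 WT libraries (25.6%, against 13.4% of all tested genes), and in 0 members all lay above (13.4% of all genes). They were *Irf1*, *Irf9*, *Stat2*, *Ifit3*, *Ifi35*, *Oas3*, *Igtp*, *Ifitm1*, *Ifitm2*, *Ifitm3* and *Slfn9*. *Bmal1-/-* mouse 3 was the lowest of all 7 in 37 of 43 members, and *Bmal1-/-* mouse 2 was the highest of its group in 41 and above the lowest WT library in 32. The summed level of the 43 members was 627, 775 and 520 CPM in the mice labelled *Bmal1-/-* and 837, 761, 988 and 914 CPM in WT. The sum of *Bmal1-/-* mouse 2 thus lay above that of WT mouse 2, and the other sums did not cross. Without *Bmal1-/-* mouse 2 the genotypes did not overlap in 34 members (38% of all genes), and without WT mouse 2 in 23 (35.8% of all genes). WT mouse 2 was the lowest WT library in 32 members, while WT mice 3 and 4 were the highest of all 7 in 17 and 18.

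**Figure D2:**
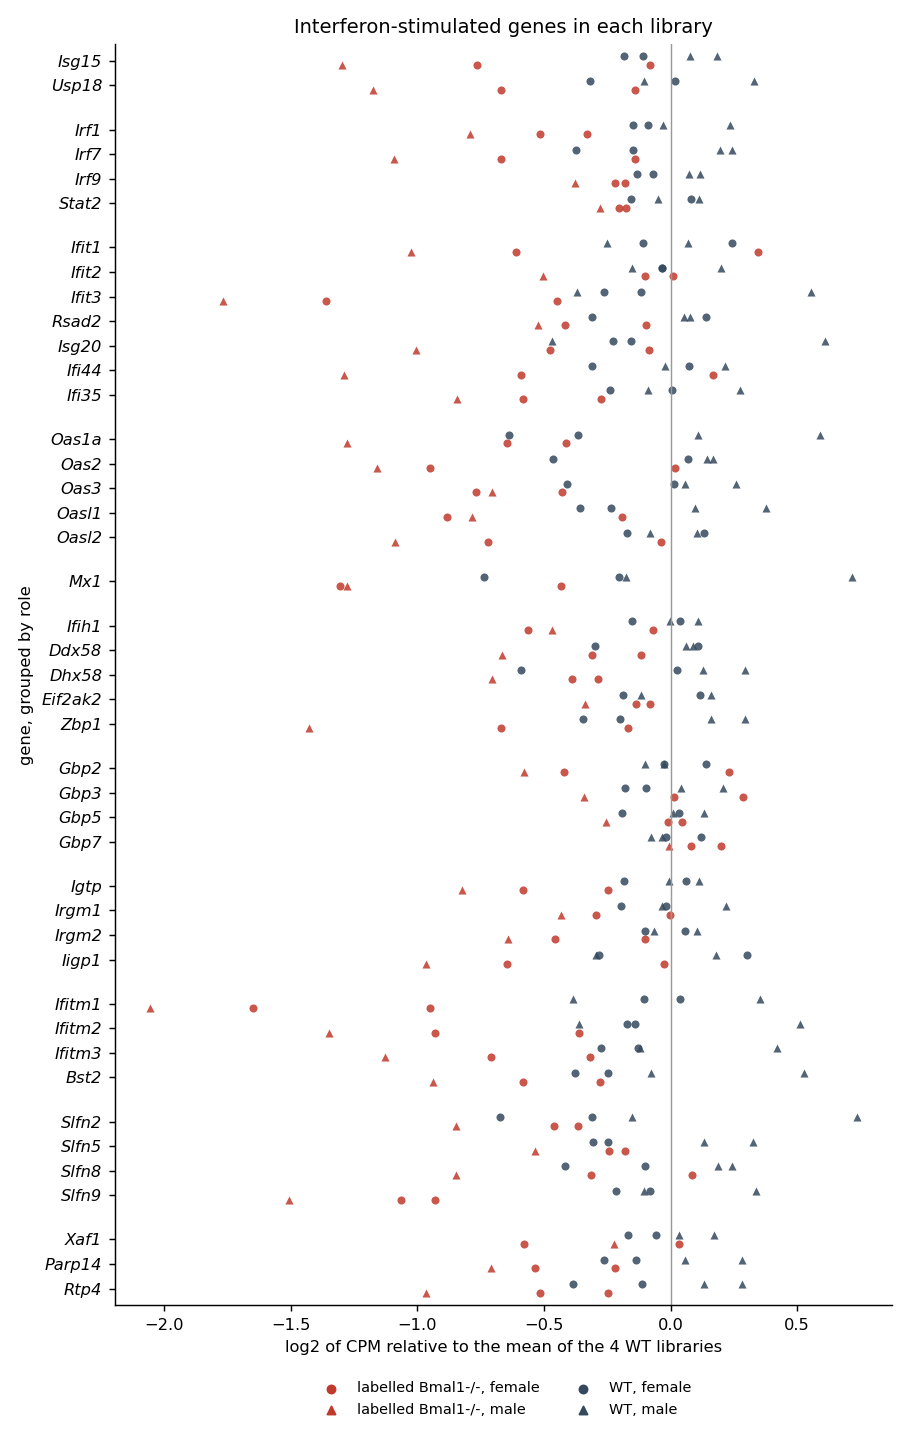
Level of each member in each library, as the log2 of its CPM relative to the mean of the 4 WT libraries (horizontal axis), with libraries labelled Bmal1-/- in red, WT in dark blue, females as circles and males as triangles. The male labelled Bmal1-/- lies farthest left in 37 of 43 members, and the nearest red circle is often among the WT points.

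The ISG15 system stands first among the effectors. ISG15 is a ubiquitin-like protein that is attached to other proteins or secreted, and USP18 removes it and restrains the type I receptor. *Isg15* (ENSMUSG00000035692, chromosome 4, 156199424 to 156200818) was at 4.88, 7.84 and 3.37 CPM in the mice labelled *Bmal1-/-*, and at 7.70, 7.30, 9.43 and 8.75 CPM in WT. Mouse 2 of the former reached the WT range and mice 1 and 3 did not. The log2 fold change was -0.63 (SE, the standard error, 0.27, adjusted p = 0.243). *Usp18*, at 3.86 ± 1.37 CPM (SD, n = 3) against 5.86 ± 1.12 CPM (SD, n = 4), had a log2 fold change of -0.60 (adjusted p = 0.248).

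All 4 transcription factors had a log2 fold change under 0 (51.1% of all tested genes did), with a median of -0.39. Each had an unadjusted p under 0.05, where 12.2% of all genes were lower at this level, and none passed the adjusted threshold. *Irf1* (ENSMUSG00000018899, chromosome 11, 53770014 to 53778374), the factor through which interferon gamma acts on many genes, was at 14.8, 16.8 and 12.2 CPM against 19.9, 19.1, 24.9 and 20.7 CPM. The groups did not overlap. Its log2 fold change was -0.53 (SE 0.14, adjusted p = 0.111), and a gene on the opposite strand overlaps its exons. *Irf9* (ENSMUSG00000002325, chromosome 14, 55603571 to 55610030), the DNA-binding part of ISGF3, was at 32.7, 33.6 and 29.3 CPM against 36.3, 34.7, 41.2 and 40.0 CPM. These groups were separate by a narrow gap, and the log2 fold change was -0.26 (SE 0.09, adjusted p = 0.176). *Stat2* (ENSMUSG00000040033, chromosome 10, 128270559 to 128292849), its partner, was at 41.6, 42.4 and 39.5 CPM against 50.6, 43.0, 46.3 and 51.7 CPM, again without overlap and with a log2 fold change of -0.22 (SE 0.08, adjusted p = 0.192). *Irf7* (ENSMUSG00000025498, chromosome 7, 141262706 to 141266481), which amplifies interferon alpha production, was at 10.1, 14.6 and 7.54 CPM against 14.5, 12.4, 19.0 and 18.4 CPM. Mouse 2 labelled *Bmal1-/-* lay within the WT range. The log2 fold change of *Irf7* was -0.58 (SE 0.25, adjusted p = 0.238). Exons of *Irf9* overlap those of *Rnf31* on the same strand, and exons of *Irf7* overlap those of *Phrf1* on the opposite strand.

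The antiviral effectors of the IFIT and viperin group had log2 fold changes from -1.08 to -0.18, with a median of -0.45. At an unadjusted p under 0.05, 2 of 7 were lower, where 12.2% of all genes were. *Ifit3* (ENSMUSG00000074896, chromosome 19, 34583531 to 34588731), an RNA-binding IFIT complex member, was at 9.25, 17.4 and 6.98 CPM in the mice labelled *Bmal1-/-* and at 21.9, 19.8, 18.4 and 34.9 CPM in WT. The groups were apart, although both were widely spread, and the log2 fold change was -1.08 (SE 0.36, adjusted p = 0.174). Of the 75-base words in its exons, 41.1% are also found in other genes, above all in its near copy *Ifit3b*, so the count of *Ifit3* is uncertain. *Ifi35* (ENSMUSG00000010358, chromosome 11, 101448407 to 101458698), a partner of NMI, was at 10.1, 12.5 and 8.42 CPM against 15.2, 12.8, 18.3 and 14.2 CPM. Its groups came close at 12.5 and 12.8 CPM without overlap, and the log2 fold change was -0.55 (SE 0.17, adjusted p = 0.154). A gene on the opposite strand overlaps exons of *Ifi35*. The cap-binding *Ifit1* (log2 fold change -0.31) and its relative *Ifit2* (-0.18), viperin *Rsad2* (-0.33), the exonuclease *Isg20* (-0.47) and *Ifi44* (-0.45) overlapped between the genotypes, and *Ifit1* was highest of all 7 libraries in *Bmal1-/-* mouse 2, at 15.9 CPM.

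The 5 OAS genes, which encode synthases of 2′-5′ oligoadenylate or their inactive relatives, had log2 fold changes within a narrow range, from -0.74 to -0.55. *Oas3* (ENSMUSG00000032661, chromosome 5, 120753098 to 120777661) was at 1.14, 1.44 and 1.19 CPM against 1.96, 1.46, 2.32 and 2.02 CPM. The highest library labelled *Bmal1-/-* was just below the lowest WT library, and the log2 fold change was -0.62 (SE 0.20, adjusted p = 0.165). The other members of the family, *Oas1a* (-0.74), *Oas2* (-0.60), *Oasl1* (-0.58) and *Oasl2* (-0.55), overlapped between the genotypes. Of the exon words of *Oas1a*, 47.6% are also found in other genes, above all in its close paralog *Oas1g*. The dynamin-like GTPase *Mx1* was at 1.47, 2.69 and 1.5 CPM against 3.16, 2.18, 3.22 and 5.98 CPM. WT mouse 4 was far above the rest and WT mouse 2 was within the other group, and the log2 fold change was -0.94 (SE 0.39, adjusted p = 0.230).

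The sensors of foreign nucleic acid had smaller differences, with a median of -0.35 and overlap between the genotypes in all 5. Among the helicases that detect viral RNA, the log2 fold change was -0.35 for *Ifih1* (MDA5), -0.34 for *Ddx58* (RIG-I) and -0.45 for *Dhx58* (LGP2). It was -0.18 for *Eif2ak2*, the kinase PKR that stops translation, and -0.67 for *Zbp1*, a sensor of Z-form nucleic acids that triggers cell death. Of these only *Ifih1* had an unadjusted p under 0.05 (12.2% of all genes were lower at this level), and its adjusted p was 0.210.

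The GTPases that attack vacuoles of intracellular microbes, targets of interferon gamma above all, form 2 families. The guanylate-binding proteins had log2 fold changes of -0.21 for *Gbp2*, 0.01 for *Gbp3*, -0.07 for *Gbp5* and 0.09 for *Gbp7*, a median of -0.03 with none at an unadjusted p under 0.05. *Gbp7* was at 18.6, 20.2 and 17.5 CPM in the mice labelled *Bmal1-/-* and at 19.1, 17.4, 16.7 and 17.2 CPM in WT, with both groups interleaved. The sign for *Gbp3* was not stable, since it was under 0 with limma-voom and with upper-quartile scaling. The immunity-related GTPases had log2 fold changes of -0.54 for *Igtp*, -0.23 for *Irgm1*, -0.38 for *Irgm2* and -0.49 for *Iigp1*. *Igtp* (ENSMUSG00000078853, chromosome 11, 58199556 to 58207591) was at 10.3, 13.0 and 8.73 CPM against 16.1, 13.6, 15.4 and 16.7 CPM. The groups did not overlap, and the adjusted p was 0.126 (SE 0.15). *Igtp* and *Irgm2* overlap on the same strand, and 7.80% of the exon words of *Igtp* are also found in other genes, above all in *Irgm2*. Whether the GBP family differed from the other members was not tested. Outside the GBP and IRG families, all 35 members had a log2 fold change under 0 (51.1% of all tested genes did), with a median of -0.55. This grouping leaves out both members above 0, *Gbp3* and *Gbp7*. The IRG family it also leaves out had a median of -0.44, with all 4 under 0.

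The membrane proteins that block viral entry and release had a family median of -0.75, the lowest among families with at least 2 tested members, and included the most abundant members. *Ifitm1* (ENSMUSG00000025491, chromosome 7, 140967221 to 140969825) was at 6.96, 11.3 and 5.25 CPM in the mice labelled *Bmal1-/-* and at 22.4, 20.3, 27.9 and 16.7 CPM in WT. The highest of the former was well below the lowest of the latter. The log2 fold change of -1.48 (SE 0.29, 0.359 of the WT level) had an adjusted p of 0.0579, just short of the threshold. *Ifitm3* (chromosome 7, 141009586 to 141010770), which acts in endosomes, was at 62.1, 81.4 and 46.4 CPM against 84.0, 92.8, 136 and 93.3 CPM. It did not overlap between the genotypes, and its log2 fold change was -0.68 (SE 0.23, adjusted p = 0.179). *Ifitm2* (chromosome 7, 140954837 to 140955987) was at 16.6, 24.6 and 12.4 CPM against 28.7, 28.1, 45.1 and 24.6 CPM. The highest and the lowest of the groups nearly met, and the log2 fold change was -0.83 (SE 0.28, adjusted p = 0.182). Of the exon words of *Ifitm2*, 42.0% are also found in other genes, above all in a gene model on the same strand, so this count is uncertain. *Bst2* (chromosome 8, 71534255 to 71537456), tetherin, which holds budding virus at the cell surface, was at 28.3, 34.9 and 22.1 CPM against 35.7, 32.6, 61.1 and 40.2 CPM. *Bmal1-/-* mouse 2 lay above WT mouse 2, and WT mouse 3 was highest. The log2 fold change of *Bst2* was -0.58 (SE 0.25, adjusted p = 0.242). The 3 *Ifitm* genes and *Irf7* lie 27.6 to 27.9 Mb and *Isg20* lies 34.3 Mb from *Arntl* on the same chromosome.

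Per length of exon, *Ifitm3* had the highest level, at 93.4 CPM per kb in the libraries labelled *Bmal1-/-* and 150 CPM per kb in WT. *Ifitm2* (27.3 and 48.3) and *Bst2* (31.5 and 47.0) followed on the same scale. *Oas3* was the least abundant member, at 0.178 and 0.275 CPM per kb.

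**Figure D3:**
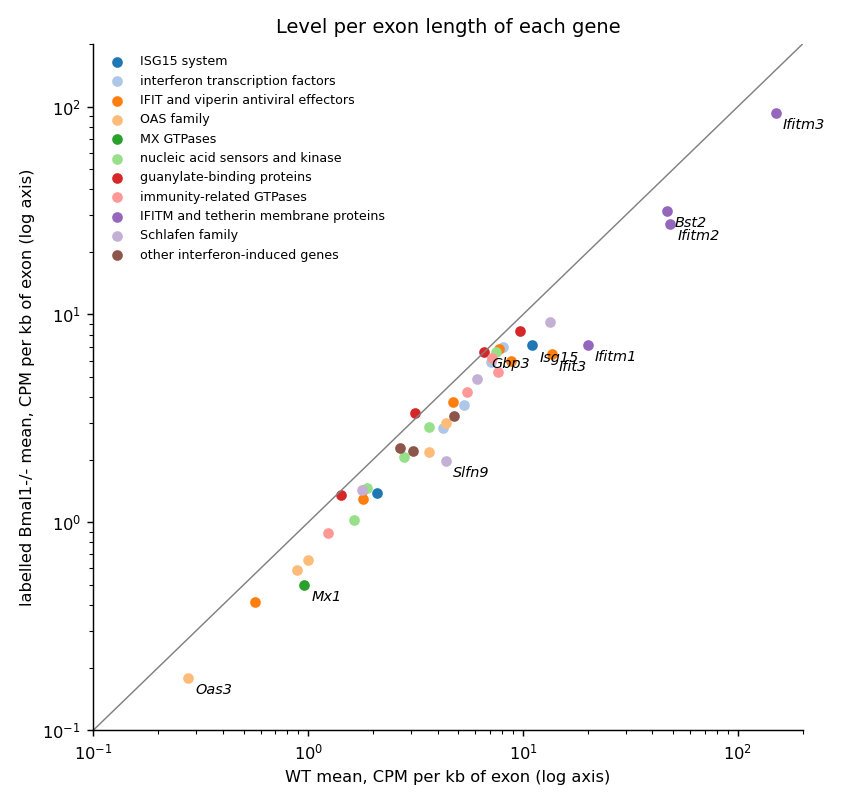
Mean level per kb of exon in the libraries labelled Bmal1-/- (vertical axis, n = 3) against WT (horizontal axis, n = 4), both on log axes in CPM per kb, with 1 point per member coloured by role and the line of equal levels. Ifitm3 stands at the top with 93.4 and 150 CPM per kb, and Ifitm1 and Slfn9 lie farthest below the line.

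The Schlafen family, whose members restrain cell growth and viral translation, held the one member past the threshold. *Slfn9* (ENSMUSG00000069793, chromosome 11, 82978390 to 82991830) was at 12.5, 13.7 and 9.19 CPM in the mice labelled *Bmal1-/-* and at 24.7, 22.5, 33.0 and 24.3 CPM in WT. Every library of the former was below every WT library. *Slfn9* fell by 1.15 on the log2 scale (SE 0.18) to 0.451 of the WT level, with means of 11.8 ± 2.34 CPM (SD, n = 3) and 26.1 ± 4.71 CPM (SD, n = 4) and an adjusted p of 0.0333 from edgeR's quasi-likelihood test. The call was lost when any library other than WT mouse 3 was left out (adjusted p from 0.0531 to 0.148) and with sex as a covariate (adjusted p = 0.0693), and without WT mouse 3 the log2 fold change was -1.01 (adjusted p = 0.0153). Its neighbours on chromosome 11 did not pass. The log2 fold change was -0.55 for *Slfn2* (adjusted p = 0.345), -0.31 for *Slfn5* (adjusted p = 0.320) and -0.31 for *Slfn8* (adjusted p = 0.457), and all 3 overlapped between the genotypes. *Slfn2* had its highest library, WT mouse 3, at 37.2 CPM, where the other 6 ran from 12.4 to 20.1 CPM. *Slfn8* and *Slfn9* share 6.99% and 5.90% of their exon words with other genes, above all with the pseudogene *Slfn10-ps*.

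Among the remaining members, *Xaf1*, which promotes apoptosis, had a log2 fold change of -0.23, *Parp14*, a mono-ADP-ribosyltransferase, of -0.47 (adjusted p = 0.183), and *Rtp4*, a receptor chaperone, of -0.55 (adjusted p = 0.219). None separated the genotypes. In *Rtp4*, 10.5% of the exon words are also found in other genes, and in *Gbp7* 11.3% are.

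**Figure D4:**
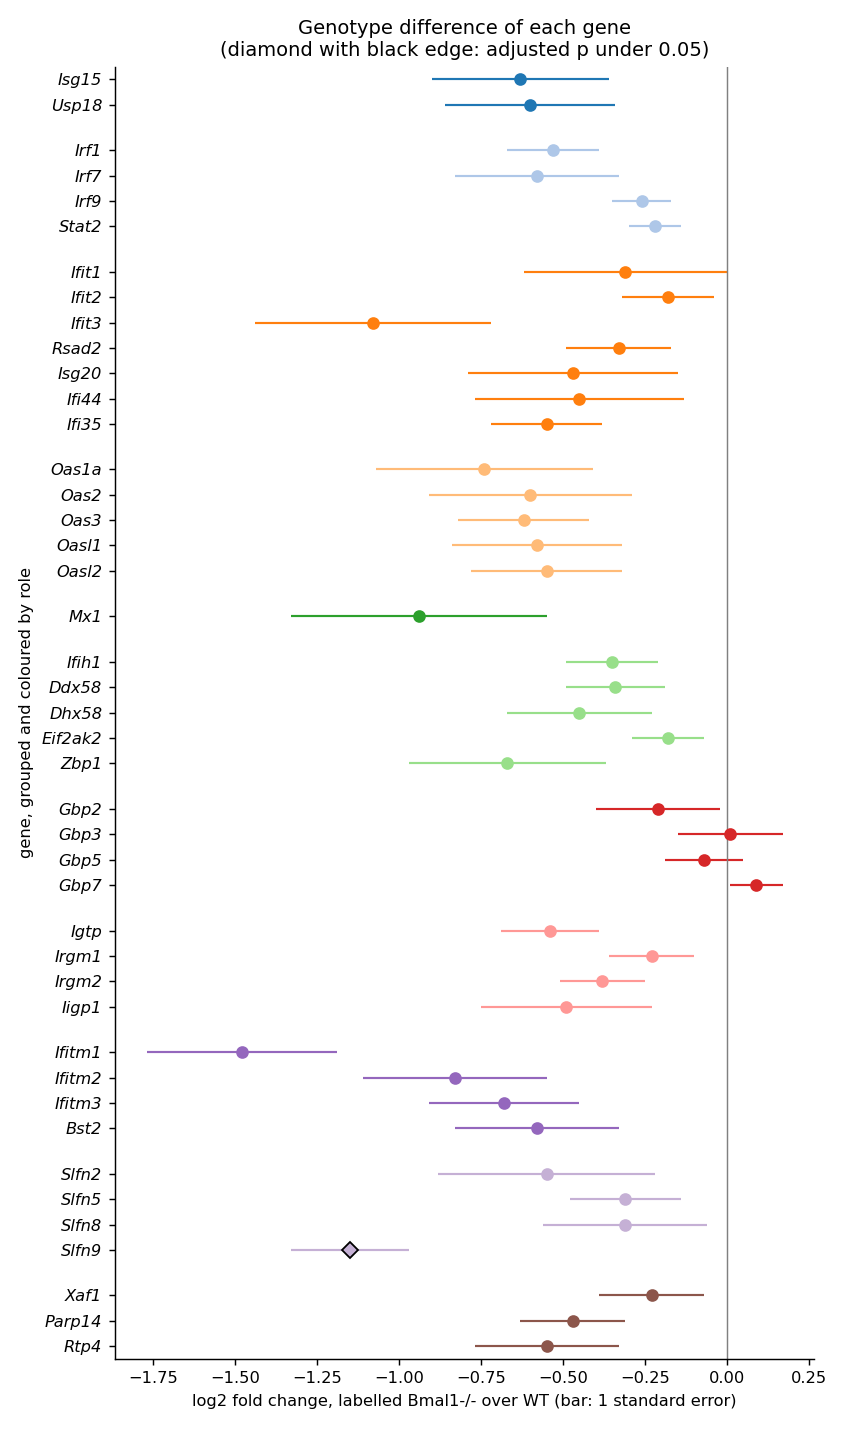
Log2 fold change of each member, labelled Bmal1-/- over WT, with bars of 1 standard error and points coloured by role. Only Slfn9, the diamond at -1.15, passed the adjusted threshold, and Gbp3, Gbp5 and Gbp7 lie nearest 0.

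The genotypes were also compared within each sex. Between the 2 females labelled *Bmal1-/-* and the 2 WT females the median log2 ratio of the members was -0.13 (-0.00 for all genes), with 37 of 43 under 0. In 11 members both *Bmal1-/-* females lay below both WT females (27.4% of all genes did) and in 2 they lay above (26.4% of all genes). The male labelled *Bmal1-/-* had a median log2 ratio of -0.94 to the WT males, with 42 of 43 members under both WT males (42.5% of all genes) and *Gbp7* above (41.4% of all genes). With 1 male, mouse and sex cannot be told apart and the male value has no test. A genotype-by-sex term, added after seeing the data, passed the adjusted threshold in 0 members (lowest adjusted p = 0.40) and 0 of all genes with edgeR, and in 17 members at an unadjusted p under 0.05 (39.5%, against 12.3% of all genes). It was added after the low values of this male were seen, takes the spread of that group from the other mice and is no independent evidence.

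Members differed in how far the females separated. *Slfn9* had a log2 ratio of -0.85 in females and -1.64 in males, and *Ifitm1* of -1.23 and -2.09. When females alone were tested with edgeR, both passed the adjusted threshold, *Slfn9* at 0.0124 and *Ifitm1* at 0.0494 (2.97% of all genes were called lower). With sex as a covariate over all 7 libraries, neither passed, at 0.0693 for *Slfn9* and 0.0869 for *Ifitm1*. *Oas1a* had ratios of -0.03 and -1.65, and *Zbp1* of -0.13 and -1.66. The other Schlafen genes were above 0 in females, at 0.07 for *Slfn2*, 0.06 for *Slfn5* and 0.15 for *Slfn8*, and at -1.21, -0.77 and -1.06 in males.

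**Figure D5:**
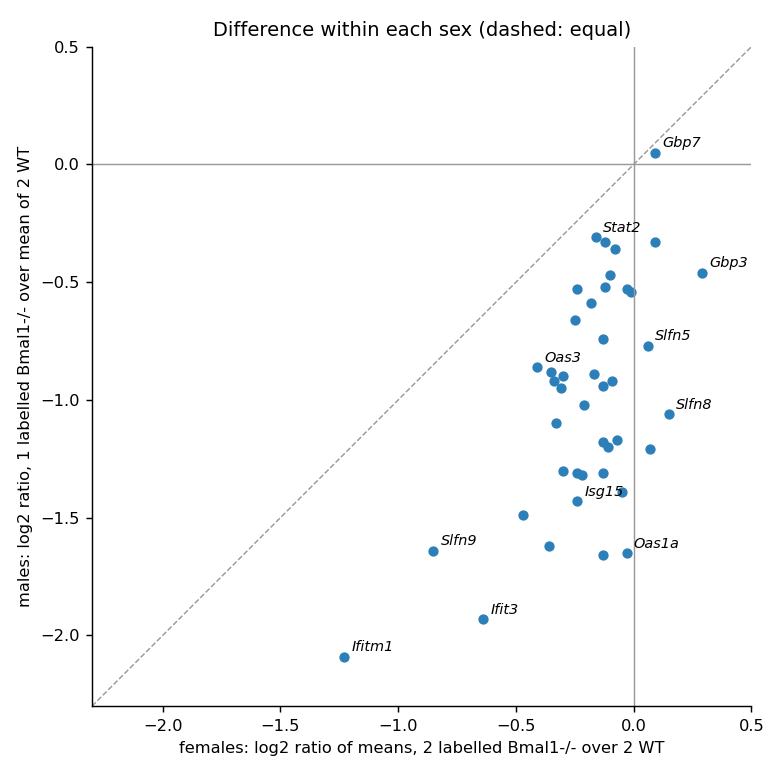
Log2 ratio of each member within females (horizontal axis, 2 labelled Bmal1-/- over 2 WT) and within males (vertical axis, 1 labelled Bmal1-/- over 2 WT), with the dashed line of equal ratios. All members lie below the line, and Slfn9 and Ifitm1 are farthest left.

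The ligands of the pathway were barely counted. Of 18 interferon genes, 13 were at 0 in all libraries, and no library held more than 2 interferon counts in all, the others being single counts of *Ifnb1*, *Ifna16*, *Ifnab*, *Ifnk* and *Ifng*. Differences in ligands were therefore not detectable at this depth, where 3 counts correspond to 0.068 to 0.0779 CPM. The receptors had log2 fold changes of -0.18 for *Ifnar1*, -0.15 for *Ifnar2*, 0.06 for *Ifngr1*, -0.08 for *Ifngr2*, 0.15 for *Ifnlr1* and -0.42 for *Il10rb*, with no unadjusted p under 0.05.

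A wider list of 111 other pathway genes had 89 tested, with a median of -0.22 and 72 under 0 (51.1% of all genes were). With edgeR 0 of these passed in either direction. At an unadjusted p under 0.05, 21 had lower and 1 had higher values, where 12.2% of all genes had lower values. The share of all genes with higher values at this level was not counted. DESeq2 called 11 lower, where it called 5.81% of all genes lower, and 1 higher, *Cmpk2*, where it called 3.81% of all genes higher. Of 57 further interferon-stimulated genes tested, 49 had a log2 fold change under 0 with a median of -0.32, from *Ifit3b* (-1.26, adjusted p = 0.113) to *Cmpk2* (0.66, adjusted p = 0.121), a mitochondrial nucleotide kinase and neighbour of *Rsad2*. The signalling genes had a median of -0.04, the sensors and adaptors that induce interferon -0.19 and the inhibitors of signalling -0.17.

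Markers of the cells in the tissue were summed in the same libraries. The summed level of 12 macrophage markers ran from 3124 to 4327 CPM in the mice labelled *Bmal1-/-* and from 3497 to 6606 CPM in WT. Of these markers, 9 of 12 had a log2 fold change under 0, where 51.1% of all tested genes did. For 8 microglial markers the sums ran from 949 to 1145 and from 1029 to 1288 CPM (6 of 8 under 0). All 8 endothelial markers were under 0, with sums from 395 to 460 and from 478 to 806 CPM, and all 8 neutrophil markers were, from 30.1 to 63.5 and from 37.1 to 131 CPM. WT mouse 3 was the highest of the WT mice for macrophage, neutrophil, endothelial, pericyte, oligodendrocyte and red cell markers. Without it the highest WT sums were 4678 CPM for macrophage, 82.3 CPM for neutrophil, 550 CPM for endothelial, 357 CPM for pericyte, 30811 CPM for oligodendrocyte and 166 CPM for red cell markers. Skeletal muscle markers, from 5.51 to 7.46 against 43.3 to 53.6 CPM, and red cell markers, from 26.1 to 60.0 against 149 to 451 CPM, were higher in every WT library. T and NK cell markers summed to at most 1.40 CPM in any library, with *Ncr1* at 3 counts or fewer. Markers of plasmacytoid dendritic cells, the main producers of interferon alpha, include *Tcf4* and *Pacsin1*, which neural cells also express, and summed to 363 to 422 CPM against 258 to 351 CPM, with *Klk1* at 3 counts or fewer, while 3 of the 4 tested had a log2 fold change under 0 (median -0.38). Fibroblast markers ran from 407 to 2330 CPM against 1216 to 1926 CPM (5 of 6 under 0), pericyte markers from 260 to 312 against 324 to 375 CPM (2 of 5 under 0, median 0.09) and oligodendrocyte markers from 23040 to 28428 against 23436 to 34459 CPM. Astrocyte markers ran from 14240 to 17113 against 10155 to 13904 CPM (3 of 6 under 0, median 0.07). Neuronal markers ran from 3651 to 4406 against 1566 to 3605 CPM (0 of 6 under 0, median 0.38). Both sets mark defining cells of spinal cord tissue, were counted in all libraries and had lower sums in every WT library. WT mouse 3 had the lowest WT sum for astrocyte, neuronal and plasmacytoid dendritic cell markers, and the lowest WT sums without it are not given. The part of these cell types in the values of the interferon-stimulated genes was not tested.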

How the data were processed

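RNASeq was made from injury epicenters of 3 mice labelled *Bmal1-/-* and 4 WT mice. The authors prepared stranded poly-A libraries, checked reads with FastQC 0.10.1, used Tophat2 for alignment to GRCm38 and took gene counts with HTSeq 0.10.0. These counts were deposited unscaled. The annotation release and the strand setting of the counting are not given in the sources used here, so members that overlap another gene are uncertain. The members and the gene lists were chosen with earlier results of these data known.

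Genes passing filterByExpr were scaled with TMM and tested on genotype with edgeR 4.0.16 (quasi-likelihood test, limma 3.58.1, R 4.3.3), with Benjamini-Hochberg adjustment over all 15743 tested genes and a threshold of 0.05. The scripts were tested on simulated data. DESeq2 1.42.0, limma-voom, RLE and upper-quartile factors, 2 other filters (at least 1 count, a mean count of 10), sex as a covariate, a replicate block, females only and each library left out were alternatives. Values from males only and a genotype-by-sex term were added after seeing the data. The named genes are all members, with every library given for called members, the 8 smallest p, the 3 highest levels per exon length and *Isg15*, *Irf1*, *Irf7*, *Irf9* and *Stat2*. From the pathway list, the receptors and any gene called by edgeR on all libraries (0) are named, and 1 further gene that the rule named is not reported here. Other genes were named after their values were seen. Exon positions, lengths and shared 75-base words came from GENCODE M21 (GRCm38), which matched 21939 of 21965 gene IDs, and promoter sequences from RefSeq (GRCm38.p6). Figures used matplotlib 3.10.9 (python 3.11.15).

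The replicates are separate mice. Library totals ran from 38529644 to 44096737, and over all genes every pair of libraries differed by more than sampling noise (chi-square per degree of freedom of at least 14.2).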

Additional observations from a re-analysis of the deposited data

Results flagged for a closer look

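Among the 43 members and the 6 interferon receptors, 49 genes were examined for a WT library far from the other 3 WT libraries by Dixon's gap test, and 2 were marked. For *Ddx58*, WT mouse 2 was counted at 20.9 CPM, where the other WT libraries ran from 26.8 to 27.7 CPM, and its gap to the nearest of them was 0.873 of the range. For *Il10rb*, WT mouse 3 was counted at 66.1 CPM, where the others ran from 39.3 to 41.9 CPM, a gap of 0.903 of the range. Chance marks about 1 in 20 such groups.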

How the results depend on the processing

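Lower at the adjusted threshold were 6 members with DESeq2, 2 in females only, 0 with sex as a covariate and 0 with the replicate block, against 1 by edgeR on all libraries. Over all genes, the calls in either direction were 1513, 757, 174 and 0 in the same order, against 247. The median of the members was -0.13 in females only and -0.94 in males only. Leaving out 1 library at a time gave 0 to 2 members lower, medians from -0.71 (without *Bmal1-/-* mouse 2) to -0.34 (without *Bmal1-/-* mouse 3), and 11 to 34 members without overlap (34 without *Bmal1-/-* mouse 2, where 38% of all genes did not overlap, and 23 without WT mouse 2, where 35.8% did not). With 1 library left out, calls over all genes in either direction ran from 57 (without *Bmal1-/-* mouse 1) to 730 (without WT mouse 3). Of the wider pathway list, DESeq2 called 11 lower and 1 higher, females only gave 1 higher (*Cmpk2* in both), and leaving out 1 library gave 0 to 1 lower and 0 to 1 higher, against 0 and 0. *Slfn9* lost its call with sex as a covariate (adjusted p = 0.0693) and with the replicate block (0.370). Over all genes the calls fell from 247 to 174 and 0 in these settings, in that order. *Slfn9* kept its call with limma-voom, the other scalings and the other filters. *Ifitm1* passed without *Bmal1-/-* mouse 2 (0.0297), without WT mouse 3 (0.0409) and in females only (0.0494). The sign of *Gbp3* turned with limma-voom (-0.00) and upper-quartile factors (-0.02), and its values with 1 library left out ran from -0.15 to 0.15. In females only, signs turned for *Gbp5* (0.09), *Slfn2* (0.07), *Slfn5* (0.07), *Slfn8* (0.15), *Ifnar2* (0.02) and *Ifngr2* (0.04). With 1 library left out, *Gbp5* ran from -0.13 to 0.01 and *Ifngr2* from -0.12 to 0.01. Over the 43 members and the 6 receptors and all these settings, 755 values kept their direction and side of the threshold, 8 moved past it (*Ifitm1*, and *Irf1*, *Igtp*, *Ifit3* and *Ifi35* with DESeq2), 8 lost it (*Slfn9* in each case) and 13 turned in sign. The cause of these changes was not tested.

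Mice with the same number were also of the same sex, and their deviations from the group means correlated at -0.174, 0.183 and -0.295. With so few mice these values cannot settle whether the numbers pair them. The replicate block, in which only 3 numbers are shared, therefore also takes in sex. It left 0 of all 15743 genes at the adjusted threshold. With 3 and 4 mice, p-values set the genotype difference against a spread estimated from these mice. Interferon ligands were under what this depth can compare.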
